A study of Mus musculus with 165 samples.

Results

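The 9 genes described here encode proteins that neutrophils store in their secondary (specific) and tertiary (gelatinase) granules. They were taken by symbol, *Ltf*, *Lcn2*, *Camp*, *Ngp*, *Chil3*, *Mmp8*, *Mmp9*, *Hp* and *Itgb2l*, as 9 of the 36255 genes in the normalised count table, and all 9 passed the filter on low counts, as did 17414 genes in all. RNA-Seq followed PUER cells, a line of PU.1-/- (genotype label Spi1-/-) myeloid progenitors. The labels call them bone marrow-derived, while the text of the study names fetal liver in 1 place and bone marrow in another. The cells carry a PU.1 fusion protein that holds the hormone-binding part of the oestrogen receptor, so that 4-hydroxy-tamoxifen (OHT) activates it. The libraries fell into 56 combinations of cytokine and time. Undifferentiated cells in IL3 at 0h are the start of both conditions (3 libraries). In the GCSF condition, GCSF took the place of IL3 at 10 ng/ml for 48h, giving the GCSF 0h samples (3 libraries), and 100 nM OHT was then added for 27 time points from 1h to 168h (78 libraries, GCSF-OHT). In the IL3 condition the cells stayed in 5 ng/ml IL3 and received 200 nM OHT for the same 27 time points (81 libraries, IL3-OHT). Every group had 3 libraries except GCSF-OHT at 96h, 112h and 152h, which had 2.

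All groups carry the same engineered deletion and the same fusion protein, and all come from a single line, so that replicates are culture wells and p-values measure the spread between wells. The OHT dose changed together with the cytokine, so the effects of these cannot be told apart, and each time point was a plate of its own, so that plate and time cannot be told apart either. No library came from cells kept as long without OHT. The effect of OHT thus cannot be told apart from that of hours in culture and medium changes, and changes with OHT below are differences from 0h. The titles of the GCSF 0h libraries name OHT, whereas their descriptions place them before its addition, and they are taken here as cells without OHT. The study set aside IL3-OHT at 96h and 144h. Both are left out of every test below, while their levels are included in the description of time courses. Between 14600246 and 33147945 reads fell on genes in each library, with a median of 21960878, and 3 reads were worth between 1.96 and 5.51 normalised counts.

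Granule proteins are made in waves as a neutrophil matures. Primary granules are filled first, at the promyelocyte stage, specific granules follow at the myelocyte stage, and gelatinase granules are formed last, as cells stop dividing. The transcription factor C/EBPε is required for specific granule genes, and neutrophils of animals or patients without it lack lactoferrin and other proteins of this class. Among the 9 genes, *Ltf* encodes lactoferrin, which binds iron. *Lcn2* encodes lipocalin 2, which binds bacterial siderophores, and *Hp* encodes haptoglobin, which binds free haemoglobin. *Camp* encodes the precursor of the antimicrobial peptide cathelicidin, and *Ngp* encodes neutrophilic granule protein, a relative in the cystatin-like family. *Mmp8* and *Mmp9* encode neutrophil collagenase and gelatinase B. *Chil3* encodes Ym1, a chitinase-like protein without chitinase activity that is made by both neutrophils and some macrophages, and *Itgb2l* encodes a protein related to the integrin β2 chain.

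In the GRCm38 mouse genome with GENCODE M21 annotation, all 9 are protein-coding. Chromosome 9 holds 4 of them: *Mmp8* (chr9:7558456-7568485, plus strand), *Camp* (chr9:109847379-109849617, minus strand), *Ngp* (chr9:110419747-110423012, plus strand) and *Ltf* (chr9:111019271-111042767, plus strand). The remaining genes are *Lcn2* (chr2:32384633-32388252, minus strand), *Mmp9* (chr2:164940780-164955850, plus strand), *Chil3* (chr3:106147554-106167564, minus strand), *Hp* (chr8:109575128-109579172, minus strand) and *Itgb2l* (chr16:96422288-96443619, minus strand).

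The table of RefSeq promoters (GRCm38.p6) held 7 of the 9 genes, all except *Mmp9* and *Hp*. The 250 bases before the RefSeq start are printed for 4 genes: *Ltf* and *Itgb2l*, whose levels rose and fell together in GCSF, and *Ngp* and *Chil3*, which took different courses. Sequences run 5′ to 3′ on the gene's own strand, and capitals mark every match, on either strand, to a C/EBP-type motif (TTGCNNAA) or to the core bound by PU.1 (GAGGAA). The positions printed are chr9:111019042-111019291 (plus strand) for *Ltf*, chr16:96443615-96443864 (minus strand) for *Itgb2l*, chr9:110419558-110419807 (plus strand) for *Ngp* and chr3:106167565-106167814 (minus strand) for *Chil3*.
Ltf: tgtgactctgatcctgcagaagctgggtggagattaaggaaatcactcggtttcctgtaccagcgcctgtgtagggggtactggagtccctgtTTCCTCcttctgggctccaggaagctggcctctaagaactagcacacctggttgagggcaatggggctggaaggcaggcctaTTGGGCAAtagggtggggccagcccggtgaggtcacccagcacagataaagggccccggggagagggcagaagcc
Itgb2l: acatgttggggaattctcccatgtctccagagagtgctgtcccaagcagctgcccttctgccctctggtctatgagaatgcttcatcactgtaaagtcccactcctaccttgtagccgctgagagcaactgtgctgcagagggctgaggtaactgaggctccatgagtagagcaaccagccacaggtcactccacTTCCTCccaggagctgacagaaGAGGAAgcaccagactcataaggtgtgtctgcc
Ngp: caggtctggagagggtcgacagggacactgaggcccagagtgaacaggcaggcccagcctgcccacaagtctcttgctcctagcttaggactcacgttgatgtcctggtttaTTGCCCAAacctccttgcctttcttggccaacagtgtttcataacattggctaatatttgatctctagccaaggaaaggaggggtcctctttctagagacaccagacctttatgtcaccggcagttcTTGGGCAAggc
Chil3: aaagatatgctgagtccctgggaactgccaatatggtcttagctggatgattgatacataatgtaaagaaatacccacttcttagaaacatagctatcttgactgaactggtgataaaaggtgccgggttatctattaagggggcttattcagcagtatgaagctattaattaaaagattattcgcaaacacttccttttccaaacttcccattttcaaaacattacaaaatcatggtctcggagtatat
The *Ltf* window held a C/EBP match 75 to 68 bases before the start and a PU.1 core ending 152 bases before it. *Itgb2l* held 2 PU.1 cores, 55 to 50 and 33 to 28 bases before the start, and no C/EBP match, whereas *Ngp* held 2 C/EBP matches, the nearer 11 to 4 bases before it, and no PU.1 core. The *Chil3* window held neither motif. Of the other 3, *Lcn2* and *Mmp8* held 1 match to each motif and *Camp* held none. The RefSeq and GENCODE starts differ for several of these genes. By the GENCODE coordinates above, the nearer *Ngp* match and the whole *Lcn2* window lie inside the gene. The *Ltf*, *Itgb2l* and *Camp* windows also run a short way into theirs. The C/EBP letters occurred in 4 of the 7 windows and in 9.6% of 32851 promoters of that length, and the PU.1 core in 4 of the 7 and in 23.3% of all. These motifs were kept after others had been looked at in the same windows, so the shares are no test of enrichment. A match describes letters in the window and is not a binding site.

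Levels of different genes were compared per kilobase of exon. In undifferentiated cells *Ngp* stood highest, at 33182 ± 273 normalised counts per kb (SD, n = 3), followed by *Hp* at 10859 ± 129.4. *Lcn2* (5408 ± 329) and *Camp* (5097 ± 120) came next and differed by less than the SD of *Lcn2*. *Chil3* had 1044 ± 45.9 per kb, and the other 4 genes were near the limit of detection, with *Mmp8* at 5.91 ± 0.557, *Mmp9* at 3.81 ± 0.209, *Ltf* at 2.34 ± 0.981 and *Itgb2l* at 1.80 ± 1.36 per kb. The starting cells thus ranged from abundant to barely detected RNA for proteins of the same granules. At 168h of GCSF-OHT the order was *Chil3* (72923 ± 1975), *Lcn2* (47712 ± 1819), *Hp* (35629 ± 980), *Ngp* (33630 ± 3244), *Camp* (4153 ± 427), *Mmp9* (882 ± 215.4), *Mmp8* (59.4 ± 8.13), *Ltf* (16.4 ± 1.15) and *Itgb2l* (9.09 ± 0.571), where *Hp* and *Ngp* were within 1 SD of each other. At 168h of IL3-OHT *Chil3* was again first (71521 ± 6905 per kb), and *Ngp* (27630 ± 2278), *Lcn2* (19283 ± 1306) and *Hp* (8798 ± 197.5) followed. *Ltf* (61.03 ± 4.61) stood above *Mmp8* (45.5 ± 3.72) there, the reverse of their order in GCSF-OHT.

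Summed over the 9 genes, their share of all reads on genes was 0.334% in undifferentiated cells, 0.618% after GCSF pre-treatment and 1.589% at 168h of GCSF-OHT. In IL3-OHT it fell to 0.212% at 12h and reached 0.912% at 168h. In bulk RNA, a larger share of cells that express a gene and more RNA per cell cannot be told apart.

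**Figure D1:**
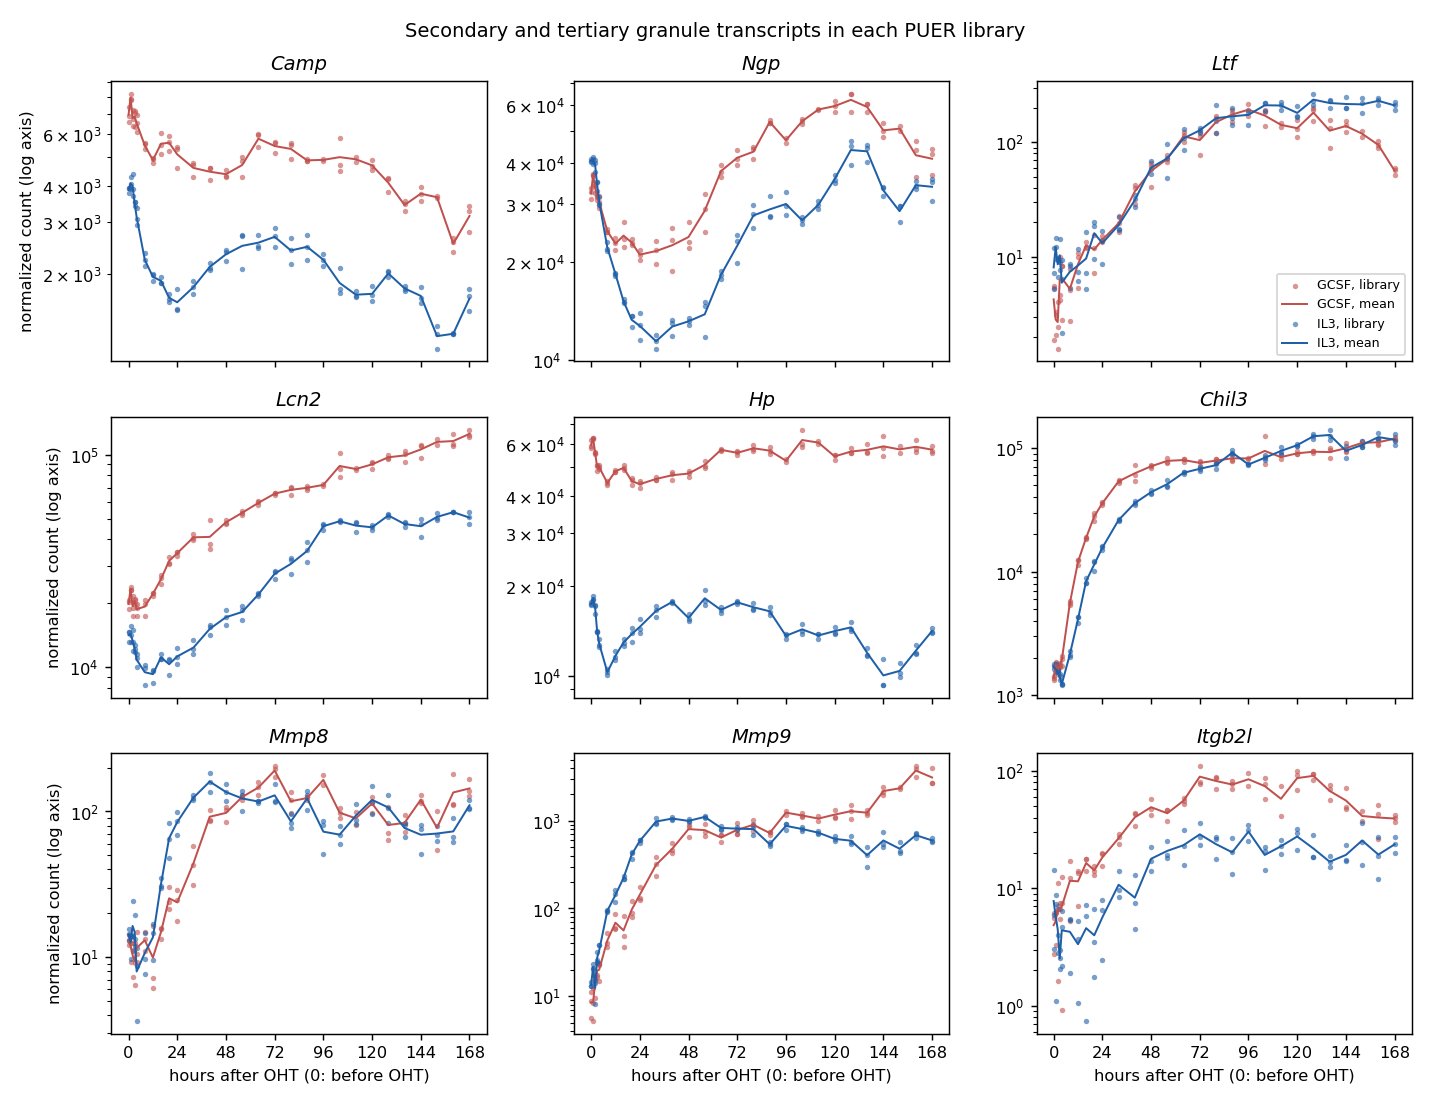
Normalised count (log scale) of each of the 9 genes against hours of OHT in GCSF and in IL3, with points for single libraries and lines through group means. *Hp*, *Camp* and *Lcn2* stay apart between the cytokines throughout, *Chil3* climbs to about the same level in both, and *Mmp9* starts higher in IL3-OHT and ends higher in GCSF-OHT.

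*Chil3* had the steepest rise among the abundant genes and reached the same range in both cytokines. Undifferentiated cells had normalised counts of 1626, 1776 and 1711, and GCSF 0h cells had 1390, 1328 and 1423. By 168h the values were 115651, 119300 and 122079 in GCSF-OHT and 106687, 128913 and 114566 in IL3-OHT. All treated libraries lay far above all starting ones, and those of the 2 cytokines overlapped. The change at 168h was 6.43 ± 0.0813 (SE, log2 of normalised count + 1, the scale of every fold change below) in GCSF-OHT against GCSF 0h (adjusted p = 1.31e-96) and 6.09 ± 0.0813 in IL3-OHT against undifferentiated cells (adjusted p = 2.52e-94). A change is called here where the adjusted p is under 0.05 and the size exceeds 0.58. How often libraries of the 2 cytokines lay apart over all genes was not counted. Statements on overlap here and below therefore describe the gene named and do not set it apart from other genes.

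Against its own 0h samples, *Chil3* was called earlier in GCSF. It was first called at 8h in GCSF-OHT, at 5577 ± 248, and at 12h in IL3-OHT, at 4135 ± 257. In IL3-OHT the mean first went from 1704 at 0h to 1229 at 4h, less than the size for a call, and was 2145 at 8h. The rise of *Chil3* from 4h to 8h was called in both cytokines, so the first calls do not show a later start in IL3. Its level passed 50% of its highest mean at 40h in GCSF-OHT and at 72h in IL3-OHT. At 12h the libraries read 12393, 11346 and 12331 in GCSF-OHT and 4299, 4266 and 3839 in IL3-OHT, a difference of 1.54 ± 0.0813 (adjusted p = 6.78e-35). GCSF-OHT was called higher at 10 of 25 shared time points, which were those from 4h to 56h, and at none afterwards. edgeR and DESeq2 also called it at 10 of 25, and 12 met an unadjusted limma p under 0.05. From 112h to 136h all IL3-OHT libraries lay above all GCSF-OHT libraries, but the largest of these differences, -0.46 at 136h, stayed under the size set for a call. The highest mean was 127584 ± 11497 at 136h in IL3-OHT and 119010 ± 3224 at 168h in GCSF-OHT. At 104h of GCSF-OHT 1 library, replicate 3, stood apart at 125158, against 84618 and 74609. This was not limited to *Chil3*. Between that library and the other 2 the chi-square per gene was 47.5 and 68.5, against 6.10 between those 2. The library was kept in the main tests. *Chil4*, the closest relative of *Chil3*, whose similar sequence could draw reads from it, stayed between 3.58 and 10.7 as a mean in the 6 groups at 0h, 80h and 168h.

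The iron- and haem-binding proteins followed 3 different courses. *Lcn2* rose in both conditions and was higher with GCSF throughout. Its libraries read 14644, 14724 and 13189 in undifferentiated cells and 20228, 18758 and 20638 after GCSF pre-treatment, an increase of 0.49 ± 0.0778 that passed the test (adjusted p = 2.73e-08) but not the size for a call. At 168h they read 121589, 130571 and 123288 in GCSF-OHT and 47030, 53866 and 50840 in IL3-OHT. None of these 4 groups overlapped. GCSF-OHT was called higher from 20h on (20 of 27 time points), by 2.66 ± 0.0778 at 168h. In IL3-OHT *Lcn2* first fell, to 9295 ± 698 at 12h (-0.61 ± 0.0778, adjusted p = 1.65e-11), and was called higher from 64h on, by 1.83 ± 0.0778 at 168h. Both courses passed 50% of their highest mean at 72h.

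*Hp* differed between the cytokine conditions and changed little after OHT. The undifferentiated libraries had 17289, 17676 and 17353 normalised counts, and the GCSF 0h libraries had 58804, 57880 and 61461, a rise of 1.77 ± 0.0421 (adjusted p = 6.86e-68). At 168h of GCSF-OHT the values were 56810, 55890 and 58958, a difference of -0.05 ± 0.0421 from GCSF 0h (adjusted p = 0.311), and *Hp* was called at 0 of 27 GCSF-OHT time points by limma, edgeR and DESeq2, while an unadjusted limma p under 0.05 was met at 15, all lower. Its lowest mean there was 43836 ± 1205 at 24h, -0.44 ± 0.0421 below GCSF 0h. In IL3-OHT it was called lower at 8h (10286 ± 256, -0.76 ± 0.0421), 12h and 152h, and 168h had 14006, 14490 and 13893. All GCSF-OHT libraries lay above all IL3-OHT libraries at each of the 27 time points.

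*Ltf* started close to the limit of detection. Undifferentiated libraries held 4, 7 and 10 reads (5.23, 7.16 and 11.8 normalised counts), and GCSF 0h libraries held 6, 6 and 2 (5.54, 5.31 and 1.86). It was first called higher at 12h in GCSF-OHT (8.62 ± 2.91) and at 20h in IL3-OHT (16.1 ± 5.62). These early calls rest on few reads.

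The *Ltf* courses of the 2 conditions parted late. In GCSF-OHT the mean was highest at 96h, with 2 libraries at 217 and 170, and fell to 60.01, 57.38 and 52.19 at 168h, or 29.2% of that mean. In IL3-OHT it was highest at 128h (237 ± 27.3) and the 168h libraries read 194, 225 and 213, all above every GCSF-OHT library of that time. Summed over libraries, reads per unit of depth at 168h were 13.2 times those of GCSF 0h (95% counting interval 7.64 to 24.7) in GCSF-OHT and 26.1 times those of undifferentiated cells (16.9 to 42.5) in IL3-OHT. These intervals cover counting error only. GCSF-OHT was called lower at 7 of 25 time points, namely 1h to 3h and 136h, 152h, 160h and 168h, with a difference of -1.88 ± 0.301 at 168h (adjusted p = 3.42e-08). All IL3-OHT libraries lay above all GCSF-OHT ones from 112h to 168h.

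The cathelicidin gene *Camp* was the one member called lower at 168h in both conditions. Its libraries read 3919, 3913 and 3759 in undifferentiated cells and rose to 6896, 6582 and 7432 after GCSF pre-treatment (0.85 ± 0.0755, adjusted p = 3.3e-19). With OHT they came to 3392, 3270 and 2781 at 168h in GCSF (-1.15 ± 0.0755, adjusted p = 9.91e-28) and to 1485, 1777 and 1671 in IL3 (-1.24 ± 0.0755, adjusted p = 5.52e-30). In GCSF-OHT the decline came in 2 phases, called at 32h to 48h and again from 128h to 168h, with a mean of 5782 ± 326 at 64h between them. In IL3-OHT *Camp* was called lower at 20 of 25 time points, from 8h on, and its lowest mean was 1223 ± 107 at 152h. At all 27 time points every GCSF-OHT library lay above every IL3-OHT library. At 168h of GCSF-OHT *Camp* stood at -0.30 ± 0.0755 from undifferentiated cells, under the size for a call.

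*Ngp* dipped and recovered. Undifferentiated cells had 40532, 40890 and 40222, and GCSF 0h cells had 33410, 31051 and 32453. In GCSF-OHT it reached a low of 20989 ± 730 at 24h, was called lower at 24h and 32h only, and then climbed to 62105 ± 4564 at 128h (0.94 ± 0.0748, adjusted p = 4.94e-22). It was called higher at 8 time points, 88h and 104h to 152h. At 168h its libraries read 44101, 42584 and 36603, 0.34 ± 0.0748 above GCSF 0h, which is under the size for a call. In IL3-OHT the dip was deeper and longer. The low was 11439 ± 564 at 32h (-1.83 ± 0.0748, adjusted p = 7.6e-45), and *Ngp* was called lower at 12 of 25 time points, 8h to 72h and 104h. It returned to 43688 ± 3761 at 128h, not called against the start, and stood at 30575, 35004 and 35711 at 168h.

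The metalloproteinase genes rose from a few reads. *Mmp9* had 10, 14 and 11 reads in undifferentiated cells (13.1, 14.3 and 13.0 normalised counts) and 12, 10 and 6 in GCSF 0h cells (11.1, 8.85 and 5.59). At 168h the GCSF-OHT libraries had 2679, 2681 and 4000 normalised counts, a change of 8.38 ± 0.195 (adjusted p = 8.12e-69), and the IL3-OHT libraries had 566, 641 and 583, a change of 5.37 ± 0.195 (adjusted p = 1.58e-49). It was the member with the largest fold change in GCSF-OHT. It was also the earliest to be called, at 2h in GCSF-OHT (14.5 ± 4.45, 0.70 ± 0.195, adjusted p = 0.00316) and at 1h in IL3-OHT (21.6 ± 1.33, 0.64 ± 0.195, adjusted p = 0.0106). The IL3-OHT call did not hold at 2h (12.5 ± 3.91) and returned at 3h. On recovered reads the first call in GCSF-OHT came at 8h by edgeR and at 3h by DESeq2, and in IL3-OHT at 3h by both.

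The 2 *Mmp9* courses crossed. In IL3-OHT the level passed 50% of its highest mean at 24h, was highest at 56h (1108 ± 43.1) and ended at 53.9% of that value. In GCSF-OHT it was still rising late, passed 50% of its highest mean at 144h and was highest at 160h (3742 ± 515). At 20h the difference between GCSF-OHT and IL3-OHT was -2.10 ± 0.195 (adjusted p = 2.01e-17), and at 160h it was 2.44 ± 0.195 (adjusted p = 7.02e-22). GCSF-OHT was called lower at 9 time points, 1h and 4h to 40h, and higher at 6, 120h to 168h. Libraries of the 2 conditions overlapped at 2h, 72h and 80h only.

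*Mmp8* had 12, 14 and 11 reads in undifferentiated cells and 14, 16 and 13 in GCSF 0h cells, or 13.0 to 15.7 and 12.1 to 14.2 normalised counts. It was called from 16h on in IL3-OHT and from 20h on in GCSF-OHT. The highest mean came at 40h in IL3-OHT (160 ± 23.9) and at 72h in GCSF-OHT (191.2 ± 16.4). From 16h to 40h GCSF-OHT was called lower, by -1.80 ± 0.244 at 24h (adjusted p = 3.98e-10), when its libraries read 28.75, 24.80 and 17.76 against 69.01, 86.27 and 98.52. At 168h the values were 127.9, 138.2 and 166.0 in GCSF-OHT and 105.7, 120.8 and 104.6 in IL3-OHT, and the difference was not called. GCSF-OHT was called higher at 160h only. *Mmp8* also had single calls of lower level at 3h (GCSF-OHT against IL3-OHT) and 4h (IL3-OHT against its start), where means were 7.97 to 14.9.

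*Itgb2l* was the rarest of the 9 per kilobase. It had 11, 3 and 5 reads in undifferentiated cells (14.4, 3.07 and 5.91 normalised counts) and 3, 7 and 6 at GCSF 0h (2.77, 6.20 and 5.59). In GCSF-OHT it was called from 12h on, was highest at 128h, with 94.7, 83.8 and 93.7, and fell back to 39.4, 41.7 and 36.8 at 168h, which was still 2.84 ± 0.438 above GCSF 0h (adjusted p = 1.3e-08). In IL3-OHT it was called higher from 48h on and stayed low, with a highest mean of 30.4 ± 4.65 at 96h, a time point outside the tests, and with 23.8, 27.4 and 19.8 at 168h (1.69 ± 0.438 above undifferentiated cells, adjusted p = 0.000548). Every GCSF-OHT library lay above every IL3-OHT library at 22 of 27 time points, and libraries overlapped at 1h, 2h, 4h, 8h and 160h.

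To describe the cells before PU.1 was activated, GCSF 0h was compared with undifferentiated cells. GCSF, the removal of IL3 and 48h of culture changed together here and cannot be told apart. *Hp* and *Camp* rose, while *Ltf* (-0.82 ± 0.301, adjusted p = 0.0144) and *Mmp9* (-0.65 ± 0.195, adjusted p = 0.00272) fell from already low levels. Both calls depended on replicate 3 and on the tool. Without replicate 3 neither was called (*Ltf* -0.15, adjusted p = 0.784, and *Mmp9* -0.43, adjusted p = 0.0845, in limma), nor were they by edgeR (adjusted p = 0.139 and 0.379) or DESeq2 (adjusted p = 0.116 and 0.134). For *Ltf*, 14 reads in all in GCSF 0h cells stood against 21, a ratio of 0.525 with a 95% counting interval of 0.247 to 1.08, which includes no change. Of the 9 genes, 2 were thus called higher and 2 lower, where 13% and 20.7% of all genes tested were called. The median change was -0.30 for the 9 genes and -0.09 for all genes.

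From GCSF 0h to 168h of GCSF-OHT more of the 9 genes moved. *Mmp9*, *Chil3*, *Ltf* (3.55 ± 0.301), *Mmp8* (3.36 ± 0.244), *Itgb2l* and *Lcn2* rose, *Camp* fell, and *Hp* and *Ngp* were not called. These are 6 higher and 1 lower of 9, where 12.1% and 12.6% of all genes were called, and the median was 2.84 against 0 for all genes. Set against undifferentiated cells, which combines pre-treatment and OHT, GCSF-OHT at 168h had 7 of 9 genes called higher and 0 lower by limma, with 15.5% and 23.6% of all genes called. On the lower side 1 gene, *Camp*, passed an unadjusted p of 0.05 without the size for a call, and edgeR and DESeq2 also called 0. *Ngp* stood at 0.01 ± 0.0748.

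In IL3, 6 genes were higher at 168h of OHT than in undifferentiated cells, *Chil3*, *Mmp9*, *Ltf* (4.61 ± 0.301), *Mmp8* (2.86 ± 0.244), *Lcn2* and *Itgb2l*. *Camp* was lower, and of all genes 10.2% were called higher and 15.2% lower. The rise of *Itgb2l* was not called without replicate 2 (1.14, adjusted p = 0.0841 by limma). The median of the 9 was 1.83, against -0.03 for all genes. *Ngp* (-0.27 ± 0.0748) and *Hp* (-0.30 ± 0.0421) were lower by less than the size for a call. Undifferentiated cells are the control of this comparison and of both the pre-treatment and the GCSF endpoint comparison, so these are not independent of each other.

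**Figure D2:**
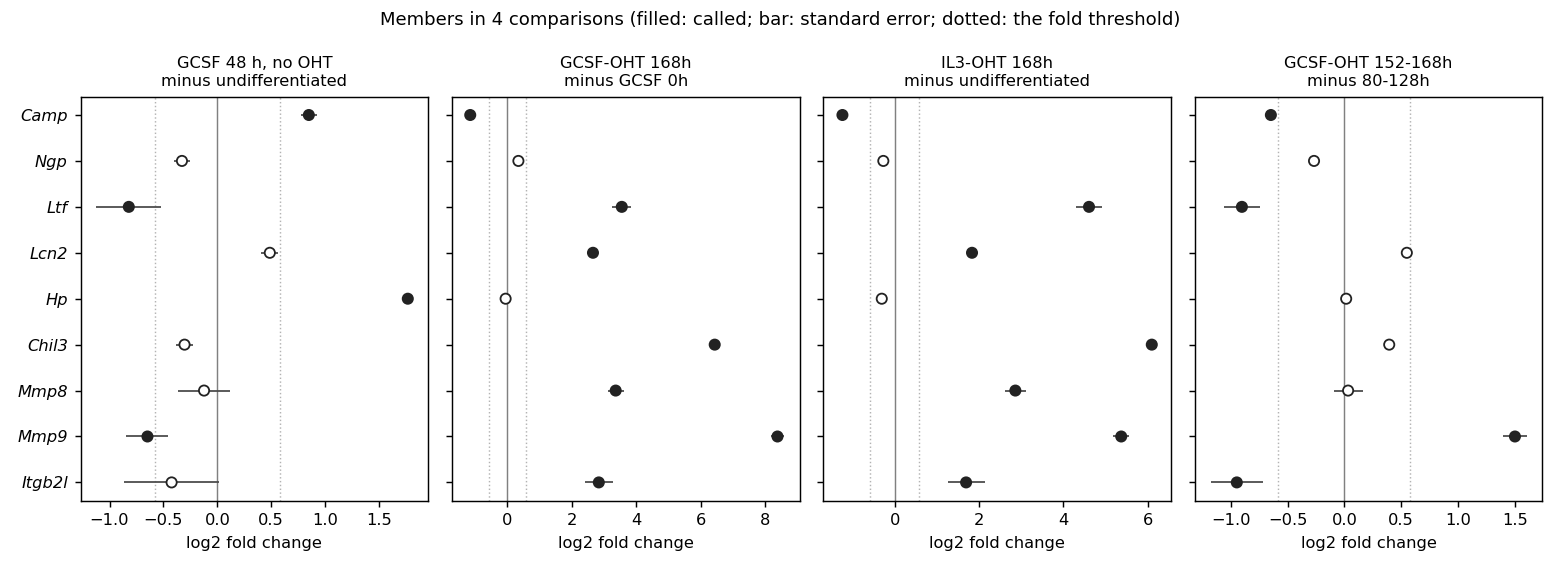
Change of each of the 9 genes in 4 comparisons, the GCSF pre-treatment, 168h of OHT in GCSF, 168h of OHT in IL3 and the late GCSF window, as the difference in log2(normalised count + 1) with its SE. Filled points were called, and dotted lines mark the size of 0.58. OHT in GCSF at 168h runs from -1.15 for *Camp* to 8.38 for *Mmp9*, and the GCSF pre-treatment moved *Hp* most, by 1.77.

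Whether the change with OHT differed between cytokines was tested as an interaction, the change at 168h in GCSF less that in IL3. It was larger in GCSF for *Mmp9* (3.01 ± 0.276, adjusted p = 7.36e-18), *Lcn2* (0.82 ± 0.11, adjusted p = 1.96e-10) and *Ngp* (0.61 ± 0.106, adjusted p = 4.38e-07), and smaller in GCSF for *Ltf* (-1.06 ± 0.425, adjusted p = 0.0339). *Camp* (0.09 ± 0.107), *Mmp8* (0.50 ± 0.345) and *Itgb2l* (1.14 ± 0.62) did not pass the test, and *Chil3* (0.34 ± 0.115) and *Hp* (0.25 ± 0.0595) passed it without the size for a call. The *Ltf* difference was not called by edgeR (adjusted p = 0.16) or DESeq2 (adjusted p = 0.142), nor by limma without replicate 1 (-0.72, adjusted p = 0.322) or replicate 2 (-0.80, adjusted p = 0.213). *Ngp* passed the test but fell short of the size without replicate 1 (0.51) or replicate 2 (0.58). *Itgb2l* ranged from 0.35 without replicate 1 to 1.83 without replicate 2 and was called only with a pseudocount of 5 (0.93, adjusted p = 0.0474 by limma). That makes 3 called higher and 1 lower of 9, where 14.5% and 11.3% of all genes were called.

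Averaged over the 25 shared time points, GCSF-OHT exceeded IL3-OHT for *Hp* (1.87 ± 0.0085), *Itgb2l* (1.35 ± 0.0885), *Camp* (1.20 ± 0.0152) and *Lcn2* (1.15 ± 0.0157), and 0 members were called lower by limma, edgeR and DESeq2 (3 by an unadjusted limma p alone, *Ltf*, *Mmp8* and *Mmp9*), where 9.34% and 15.1% of all genes were called higher and lower. *Ngp* lay just under the size for a call (0.57 ± 0.0151) and was called by edgeR (0.59) and by limma without replicate 3 (0.59). The averages of *Mmp9* (-0.09 ± 0.0395), *Mmp8* (-0.20 ± 0.0492), *Chil3* (0.41 ± 0.0164) and *Ltf* (-0.42 ± 0.0607) hide differences that changed over time.

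Taken 1 time point at a time, *Camp* and *Hp* were called higher in GCSF-OHT at 25 of 25, *Lcn2* at 24 (all but 2h), *Itgb2l* at 20, *Ngp* at 15 and *Chil3* at 10. *Hp* differed least at 40h (1.41 ± 0.0421) and most at 152h (2.47 ± 0.0471). *Camp* differed most at 20h (1.76 ± 0.0755), *Lcn2* at 32h (1.72 ± 0.0778), *Ngp* at 64h (1.05 ± 0.0748) and *Itgb2l* at 40h (2.24 ± 0.438). For *Mmp9* and *Mmp8* the sign changed with time. Over all genes and time points, 22.7% of pairs were called in either direction.

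**Figure D3:**
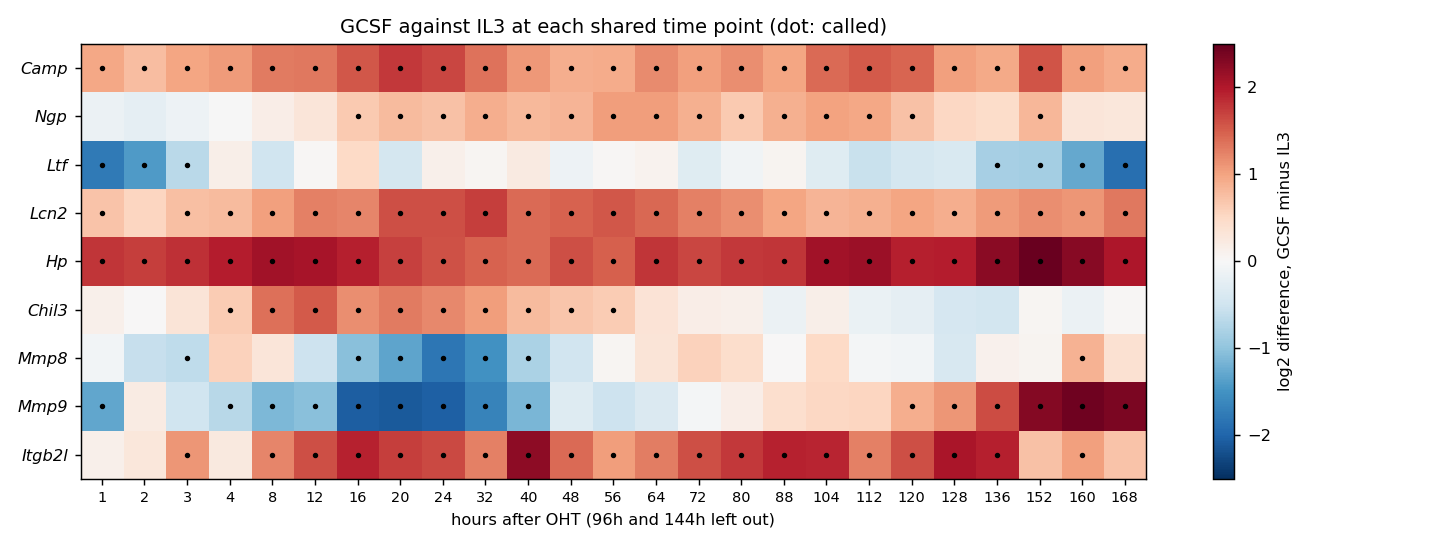
Difference between GCSF-OHT and IL3-OHT in log2(normalised count + 1) for each of the 9 genes (rows) at the 25 shared time points (columns), with a dot where called. *Hp* and *Camp* are positive in every column, *Mmp9* turns from -2.10 at 20h to 2.44 at 160h, and *Ltf* reaches -1.88 at 168h.

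Against their own 0h samples, the 9 genes were called at different times. In GCSF-OHT the order of first calls of higher level was *Mmp9* (2h), *Chil3* (8h), *Ltf* and *Itgb2l* (12h), *Lcn2* and *Mmp8* (20h) and *Ngp* (88h). In IL3-OHT it was *Mmp9* (1h), *Chil3* (12h), *Mmp8* (16h), *Ltf* (20h), *Itgb2l* (48h) and *Lcn2* (64h), and *Ngp*, *Camp* and *Hp* were called higher at 0 time points by limma, edgeR and DESeq2 (also 0 at an unadjusted p under 0.05). By edgeR and DESeq2 the first calls in GCSF-OHT came at 16h for *Ltf* and 8h for *Itgb2l*, and those of *Mmp9* moved as given above, while the other first calls were at the same hours. The first call depends on level, since genes with few reads need a larger change. The share of all gene and time point pairs called in either direction was 15.4% in GCSF-OHT and 26.7% in IL3-OHT.

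Steps from 1 time point to the next show where levels moved fast. They cover unequal times, longer late in the course, so their sizes are not comparable along it. A slow change can pass without a called step, as the rise of *Lcn2* did. The step to 32h was also the first to cells that the study detached with trypsin, whose part was not tested. *Chil3* rose in the steps to 8h, 12h, 16h and 32h in both cytokines, by 1.54 ± 0.0813 to 8h in GCSF-OHT and by 1.02 ± 0.0813 to 16h in IL3-OHT, its largest steps. *Mmp9* rose in 8 steps in GCSF-OHT, the last to 144h (0.82 ± 0.195, adjusted p = 0.000972), and in 7 steps in IL3-OHT, all by 32h, with the largest to 8h (1.504 ± 0.195). Its steps to 48h, 96h and 144h in GCSF-OHT were each the first after fresh medium and OHT, whose part was not tested. *Mmp8* rose to 16h and 20h in IL3-OHT and to 40h in GCSF-OHT, and fell to 104h in both, to 80h in GCSF-OHT (-0.71 ± 0.244) and to 4h in IL3-OHT (-0.92 ± 0.244). *Mmp9* fell in the step to 2h of IL3-OHT (-0.79 ± 0.195), a fall that edgeR and DESeq2 did not call. Their first rise of *Mmp9* there was in the step to 3h. By limma *Ltf* rose in 1 step in each cytokine, to 3h in GCSF-OHT (0.95 ± 0.301, on few reads) and to 48h in IL3-OHT (0.92 ± 0.301). By edgeR and by DESeq2 *Ltf* had 3 steps up and 1 down in GCSF-OHT, the first rise being to 40h. *Ngp* fell to 152h in IL3-OHT (-0.60 ± 0.0748), a step counted from 136h. *Lcn2*, *Camp* and *Hp* had 0 steps called by limma, edgeR or DESeq2 in either cytokine, and *Itgb2l* had 0 by limma and edgeR and 1 in each cytokine by DESeq2. At an unadjusted limma p under 0.05 the steps were 9 for *Lcn2*, 11 for *Camp*, 10 for *Hp* and 1 for *Itgb2l* in GCSF-OHT, and 10, 13, 18 and 2 in IL3-OHT. All 9 genes together had 16 steps called in GCSF-OHT and 18 in IL3-OHT, and without replicate 1 these were 7 and 11. Over all genes 1.81% of steps were called in GCSF-OHT and 3.65% in IL3-OHT.

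The late part of the GCSF course was examined by comparing 152h, 160h and 168h with 80h to 128h. *Mmp9* rose further (1.502 ± 0.103, adjusted p = 5.59e-26), while *Itgb2l* (-0.95 ± 0.23, adjusted p = 0.000312), *Ltf* (-0.90 ± 0.158, adjusted p = 6.15e-07) and *Camp* (-0.65 ± 0.0397, adjusted p = 1.98e-29) fell. *Lcn2* (0.55 ± 0.0409) and *Chil3* (0.40 ± 0.0427) increased by less than the size for a call, *Ngp* decreased by less than it (-0.27 ± 0.0393), and *Mmp8* (0.03 ± 0.128) and *Hp* (0.02 ± 0.0221) did not pass the test. Of all genes 3.04% were called higher and 3.19% lower, and the median of the 9 was 0.02.

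The likeness of the courses was described by Pearson's r between group means on the log2 scale, over 28 means in GCSF and 26 in IL3. Successive means share a culture history, so no p is given. In GCSF *Ltf* and *Itgb2l* were most alike (r = 0.970), followed by *Chil3* with *Mmp9* (0.960) and *Lcn2* with *Mmp9* (0.955). In IL3 the closest pairs were *Ltf* with *Lcn2* (0.949), *Ltf* with *Chil3* (0.937) and *Ltf* with *Itgb2l* (0.935). *Camp* ran against most of the others in both, for example with *Mmp9* (-0.832 in GCSF, -0.708 in IL3). Some pairs were alike in only 1 condition by this measure: *Ngp* and *Hp* had r = 0.813 in GCSF and -0.134 in IL3, and *Lcn2* and *Mmp9* had 0.496 in IL3.

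**Figure D4:**
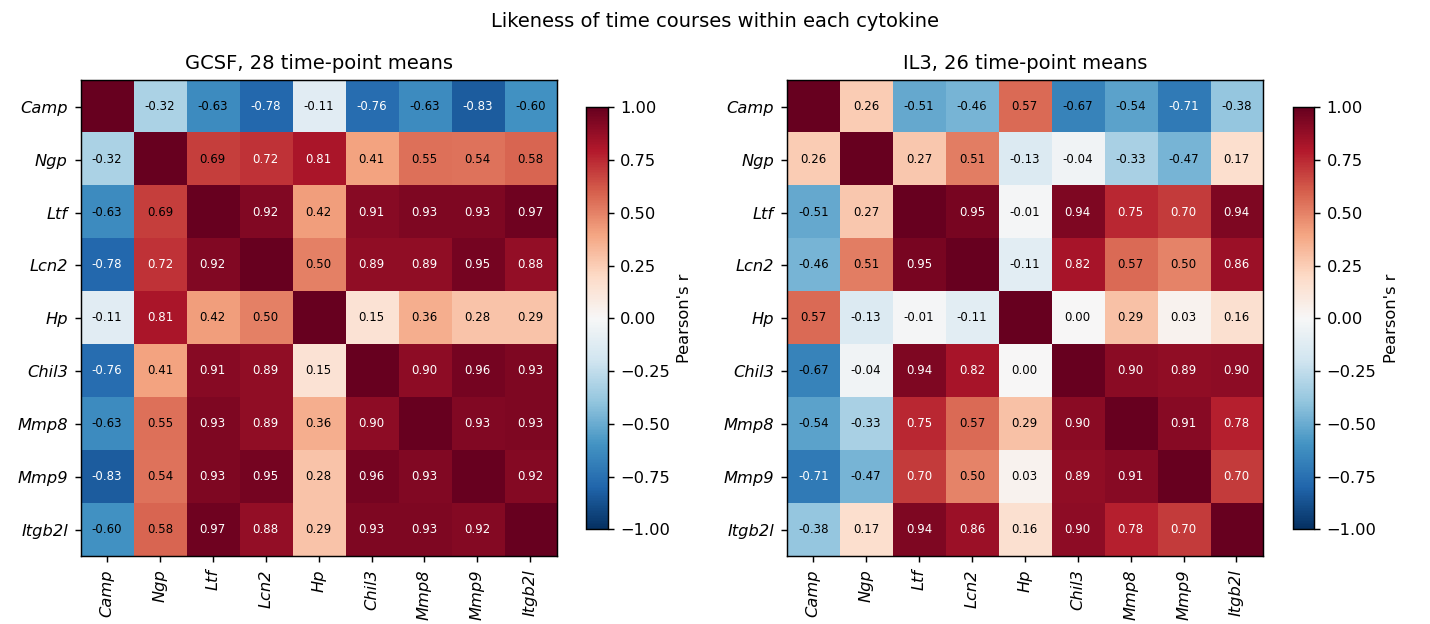
Pearson's r between the courses of each pair of the 9 genes, over group means in GCSF and in IL3, as shaded squares with the value in each. *Ltf*, *Lcn2*, *Chil3*, *Mmp8*, *Mmp9* and *Itgb2l* form a block of positive values in both conditions, and *Camp* is negative against all 6.

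Over all 54 means of both conditions, the genes outside the 9 with the most similar courses were *Lbp*, *Prx* and *Csf3r* for *Hp* (r = 0.986, 0.971 and 0.971), *C1rl*, *Gm14548* and *Lyz1* for *Chil3* (0.972, 0.969 and 0.966), and *Ces2g*, *Minar1* and *Apoc2* for *Camp* (0.964, 0.927 and 0.913). *Mmp9* was nearest to *Gm14548*, *Pira2* and *Clec4a3* (0.964, 0.961 and 0.956) and *Mmp8* to the same 3 (*Clec4a3* 0.944, *Gm14548* 0.914, *Pira2* 0.894). *Gm14548* and *Pira2* belong to a family of near-identical receptor genes between which reads may be split. For *Lcn2* they were *Dll4*, *Gadd45b* and *Mxd1* (0.952, 0.949 and 0.941), for *Itgb2l* *Hipk2*, *Syk* and *Dok3* (0.949, 0.947 and 0.945), for *Ltf* *Stfa2l1*, *Bst1* and *Cyp2a5* (0.942, 0.929 and 0.928), and for *Ngp* *Gcc1*, *P2ry2* and *Cramp1l* (0.931, 0.903 and 0.886).

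*Camp*, *Ngp* and *Ltf* mark out a stretch of chromosome 9 with 30 annotated genes between *Camp* and *Ltf* besides *Ngp*, of which 23 were tested. At 168h of OHT in GCSF, when *Camp* changed by -1.15, *Ngp* by 0.34 and *Ltf* by 3.55, 4 of those 23 were called higher and 3 lower, where 12.1% and 12.6% of all genes were, with a median of 0.23 and a range of -2.27 to 1.12. Of the 3 granule genes in this stretch, *Ltf* rose, *Camp* fell and *Ngp* was not called in the same libraries.

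Other genes of the granules and of neutrophil maturation give the setting. Of 13 further specific and gelatinase granule genes tested, 8 rose and 2 fell at 168h of OHT in GCSF (median 0.84). The formyl peptide receptor gene *Fpr1* went from 2.15 ± 1.45 to 501 ± 143 and *Cybb*, which encodes the large subunit of the NADPH oxidase, from 46.5 ± 24.6 to 1531 ± 340, while *Orm1* (-0.80 ± 0.183) and *Pglyrp1* (-0.74 ± 0.0758) fell. In IL3-OHT 7 of the 13 rose and 3 fell. Of 9 primary granule genes, 3 rose and 5 fell with OHT in GCSF (median -0.82), with *Ctsc* (2.66 ± 0.163) and *Mpo* (0.94 ± 0.104) higher and *Ctsg* (-1.72 ± 0.0435) and *Prtn3* (-1.17 ± 0.0743) lower, and in the late GCSF window 5 of 9 fell. Of 10 late neutrophil genes, 8 rose with OHT in GCSF, among them *Retnlg* (562 ± 74.2 to 9558 ± 544) and *Stfa2l1* (225 ± 5.26 to 3537 ± 217), and 5 rose and 2 fell in IL3-OHT. The shares of all genes called in these comparisons are those given above.

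**Figure D5:**
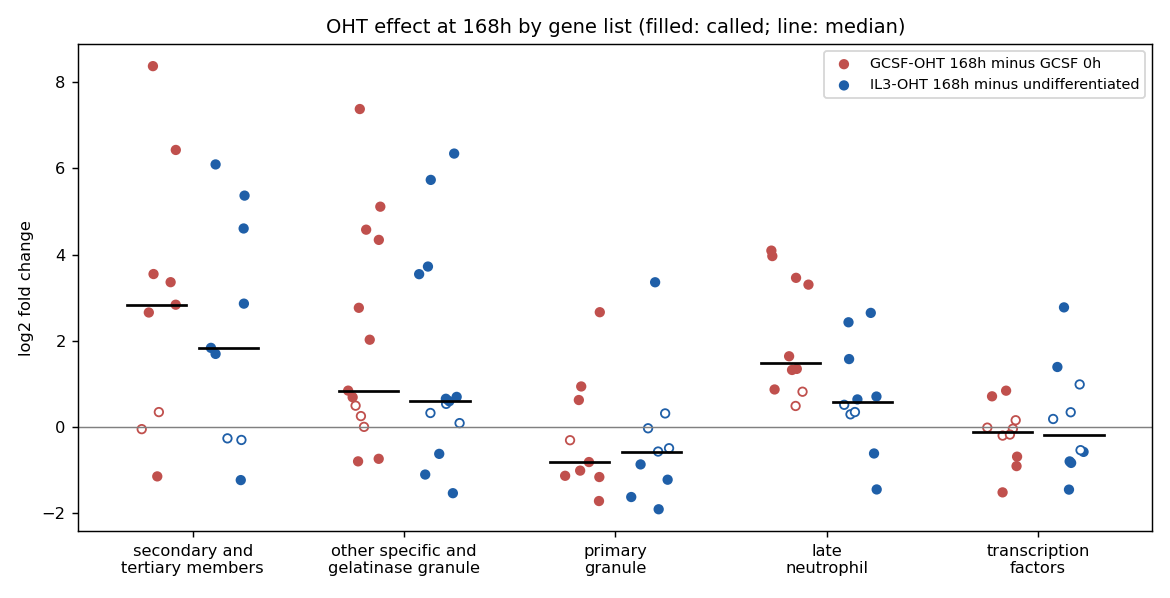
Change (log2 of normalised count + 1) of each gene in the 9 granule genes and in 4 other lists at 168h of OHT in GCSF (red) and in IL3 (blue), with filled points where called and a line at the median. Of the late neutrophil genes 8 of 10 are higher in GCSF and 5 of 10 in IL3.

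Among 10 transcription factor genes of granulopoiesis, GCSF pre-treatment raised 3, with *Gfi1* (3.14 ± 0.0598), *Cebpd* (2.13 ± 0.0968) and *Cebpe*, the C/EBPε gene (1.35 ± 0.1), and lowered 2, *Klf5* (-1.48 ± 0.0891) and *Cebpb* (-1.06 ± 0.148), where 13% of all genes were called higher and 20.7% lower. From GCSF 0h to 168h of GCSF-OHT *Gfi1* (-1.52 ± 0.0598), *Cebpe* (-0.91 ± 0.1) and *Cebpa* then fell, and *Cebpb* (0.84 ± 0.148) and *Cebpd* (0.71 ± 0.0968) rose. *Cebpe* stood at 2254 ± 182 at GCSF 0h, 2761 ± 262 at 80h and 1198 ± 95.3 at 168h, and in IL3-OHT at 881 ± 48.7 at the start, 1577 ± 93.7 at 80h and 1114 ± 55.2 at 168h. It fell in the late GCSF window (-0.76 ± 0.0527), as did *Gfi1* (-0.62 ± 0.0314). In the same libraries *Ltf*, *Itgb2l* and *Camp* fell, *Mmp9* rose and the other members were not called. A link between these factors and the 9 genes was not tested.

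Of 9 genes for receptors and inhibitors of the granule proteins, 3 rose and 3 fell at 168h of OHT in GCSF, where 12.1% and 12.6% of all genes were called. *Fpr2*, a receptor for the cathelicidin peptide, was at 0 in all 6 libraries at 0h and had 32.0 ± 6.23 normalised counts at 168h of GCSF-OHT and 21.99 ± 7.79 at 168h of IL3-OHT. *Lrp1*, which takes up lactoferrin and metalloproteinase complexes, rose by 1.99 ± 0.112. *Slc22a17*, which encodes a lipocalin 2 receptor, fell (-2.48 ± 0.592) from 9.12 ± 3.11 to 0.898 ± 0.859, under the floor of 3 reads, and *Cd163*, the haptoglobin-haemoglobin receptor gene, fell by 1.30 (-1.30 ± 0.427). Of 12 close relatives of the 9 genes, 4 rose and 3 fell in this comparison, against the same shares of all genes. *Mmp12* (2.86 ± 0.436) and *Chil1* (2.02 ± 0.511) were highest and *Chit1* and *Mmp13* (-1.20 ± 0.205) lowest. *Chit1* went from 142.7 ± 22.1 to 2.57 ± 4.45 normalised counts, with 0 reads in 2 libraries and 9 in the other, so its fold change is not given. Thus relatives of *Chil3* and of *Mmp8* and *Mmp9* went both ways.

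Markers of other cell types were measured beside these results, since *Chil3* and *Mmp9* are also made by macrophages. Of 8 macrophage markers tested, 7 rose with OHT in GCSF and 5 rose with OHT in IL3. Their summed level in the 3 libraries of a group was 10150 to 10274 in undifferentiated cells, 1587 to 2003 at GCSF 0h, 11692 to 13994 at 168h of GCSF-OHT and 12927 to 13709 at 168h of IL3-OHT. *Cd14* was the highest of the list by its mean over all libraries. The defining markers *C1qa*, *C1qb* and *C1qc* never exceeded the floor of 3 reads in any library. The part that macrophage-type cells had in the levels of *Chil3* and *Mmp9* was not tested. Eosinophil markers summed to at most 45.3 normalised counts in any library, and lymphoid markers to 284, led by *Nkg7*, with *Cd3e*, *Cd3g*, *Ms4a1* and *Pax5* never above the floor. Mast cell and basophil markers summed to at most 331, led by *Mcpt8*, and erythroid and megakaryocyte markers to 430, led by *Itga2b*. The neutrophil marker *Ly6g* stayed low and was not called with OHT in GCSF (0.49 ± 0.322) or in IL3 (0.51 ± 0.322).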

How the data were processed

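The authors aligned paired reads of polyA RNA to the GRCm38 transcriptome with Salmon (version not given in the sources used here) and deposited a signal per gene, the read count divided by a DESeq2 size factor for each library. How transcripts were brought to genes is not stated. All deposited values (100%) were whole multiples of 1 read within 1e-06, so that reads could be recovered. The 9 genes and all gene lists were chosen with earlier results of these data known. Genes with at least 5 normalised counts in 1 library (17414) were fitted with limma (3.58.1, R 4.3.3; lmFit, contrasts.fit, eBayes with trend) on log2(normalised count + 1) over 54 groups and 159 libraries, with Benjamini-Hochberg adjustment over all genes per contrast. This scale understates the change of genes with few reads. Calls required adjusted p below 0.05 together with a log2 change beyond 0.58 in either direction, the thresholds of the study. The method was tested on simulated data. Counting intervals (95%, exact) came from reads summed per group. Alternatives were other pseudocounts (0.5 and 5), filters and scaling, leaving out replicates, a replicate block, and edgeR (4.0.16) and DESeq2 (1.42.0) on recovered reads. From each list at most 4 genes are named per comparison, those with the 2 largest rises and the 2 largest falls among called genes, and the 3 most similar genes outside the 9 are named for each member. Genes of other cell types are named where they lead their list or define the type, and *Chil4*, *Ly6g*, *Cebpa* and *Cebpe* are named besides, after their values were seen. The promoter motifs were chosen after matches to AP-1, Gfi, TATA, NF-κB and STAT motifs had also been looked at, and those are not reported. Figures were drawn with matplotlib (3.10.9).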

Additional observations from a re-analysis of the deposited data

Results flagged for a closer look

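The change with 168h of OHT differed between GCSF and IL3, by a test of the difference itself, for 4 of the 9 genes. Of all genes tested, 14.5% were called higher and 11.3% lower in this comparison. Among the 9 the change was larger in GCSF for *Mmp9* (3.01 on the log2 scale), *Lcn2* (0.82) and *Ngp* (0.61) and smaller in GCSF for *Ltf* (-1.06). The values for *Mmp9* and *Lcn2* were called under all 13 alternatives, that for *Ngp* under 10 of them and that for *Ltf* under 6. Dose of OHT and cytokine changed together, so that their parts cannot be told apart.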

How the results depend on the processing

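Replicate wells carry the numbers 1 to 3 in both conditions. In the 4 groups at 0h and 168h, deviations of libraries with the same number had correlations of -0.0408 to 0.0307 over 18 pairs, so the numbers do not pair these samples. Other time points were not checked. With a replicate block the number of calls was 152 over GCSF-OHT time points and 148 between cytokines, as without it, and 15 over GCSF-OHT steps in place of 16. The 4 calls of the GCSF pre-treatment came to 2 with a pseudocount of 5, with only the groups compared, by edgeR and by DESeq2, and leaving out 1 replicate number at a time gave 2 to 4. The same range, 2 to 4, held for the 4 calls of the interaction. Steps called ranged from 7 to 13 in GCSF-OHT and from 11 to 16 in IL3-OHT when 1 replicate number was left out, which also leaves fewer samples in each test. Other causes were not tested. No value changed direction while called. Among values of single genes under the alternatives, 812 kept their direction and their side of the threshold, 21 lost a call and 4 gained 1. The 6 libraries of 120h carry another number in their names than the rest, and what it marks is not given in the sources used here. Leaving them out, an alternative chosen after seeing the data, also gave 4 calls over shared time points and 4 in the late window. Over all genes, edgeR on recovered reads called 2094 higher and 2158 lower at 168h of OHT in GCSF, where limma called 2110 and 2200. Genes with few reads, *Ltf*, *Mmp9* and *Itgb2l* at 0h, set the depth limit here.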
